A study of Mus musculus with 4 samples.

Results

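The late granule genes of neutrophils were followed across 4 bones of the mouse. Neutrophils mature in bone marrow and fill several kinds of granule in sequence: primary granules with peroxidase and serine proteases at the promyelocyte stage, then specific (secondary) and gelatinase granules with antimicrobial, iron-binding and matrix-degrading proteins from the myelocyte stage on. Transcripts of the late granule proteins are therefore known as markers of myelocytes and later cells of the marrow, while the mature protein is carried into blood and tissue. The 9 genes taken here were given by name: Camp, Ltf, Ngp, Lcn2, Mmp8, Fcnb, Chil3, S100a8 and S100a9. They were found by the gene name or older symbol on the array (Chi3l3 for Chil3), or by the accession of the probe. All 9 had a probe, 10 probes in all of 41174, and all 9 were among the 20616 genes tested. Lcn2, S100a8 and S100a9 are also known from epithelium.

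The series measured RNA of the maxilla, the mandible, the ilium and the femur of male C57BL/6 mice aged 35 days, with 1 one-colour Agilent array per bone. The maxilla and mandible make up the jaw bones, and the ilium and femur the trunk and limb bones. All mice were untreated donors of bone without any engineered allele named in the labels. The study asked whether jaw bones differ in gene expression from bones of the trunk and limbs. Neither the number of mice behind each RNA sample nor the fate of the marrow is given in the sources used here. With 1 array per bone and 2 bones per class, p-values between the classes measure the spread between different bones and not between animals.

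The 4 arrays had 43379 spots each that were not controls, of which 72.8% to 75.5% were well above background and 0 were saturated. For probes with 5 or more spots, the log2 signals of repeat spots had a median SD of 0.0573 to 0.0741, a technical error. All 8 osteoblast markers, Bglap and Col1a1 among them, were well above background on all 4 arrays. Epithelial markers differed widely between the samples. The summed signal of the 11 tested stratified epithelium markers, each relative to the 75th percentile of its array, was 105 in the maxilla and 129 in the mandible, against 4.87 in the ilium and 5.05 in the femur. The sum over the 11 tested nasal and salivary gland markers was 537 in the maxilla and 5.28 in the mandible, against 0.852 in the ilium and 0.582 in the femur. Of these gland markers, neither Dcpp1 nor Prom2 was well above background outside the jaw. Nor was Krt15 of the stratified epithelium markers.

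Levels are on a log2 scale on which each array's own 75th percentile of processed signal is 0, so that 1 unit is a 2-fold change. Differences are jaw minus trunk and limb, tested with limma, with Benjamini-Hochberg adjustment over all 20616 genes, and called at an adjusted p under 0.05.

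The genes lay in a few places of the genome. Camp, Ngp and Ltf lie close together on chromosome 9, with 8 protein-coding genes between Camp and Ngp and 20 between Ngp and Ltf. S100a8 and S100a9 are direct neighbours on chromosome 3. The promoters of the 4 members called lower in the jaw (below) and of Ltf, which departed from them in the maxilla, are shown because regulators of the C/EBP family are known to drive late granule genes in mice. Each sequence is the 250 bases before the RefSeq start (GRCm38.p6), 5′ to 3′ along the gene, and capitals mark matches to TTNNGNAA, a loose form of the C/EBP site, searched on both strands.
Fcnb promoter, chr2:28084879-28085128, - strand: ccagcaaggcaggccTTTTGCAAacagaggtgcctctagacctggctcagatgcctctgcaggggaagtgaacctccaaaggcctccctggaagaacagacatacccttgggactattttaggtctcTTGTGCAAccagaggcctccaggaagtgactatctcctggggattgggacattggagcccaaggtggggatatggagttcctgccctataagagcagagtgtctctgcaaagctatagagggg
Mmp8 promoter, chr9:7558179-7558428, + strand: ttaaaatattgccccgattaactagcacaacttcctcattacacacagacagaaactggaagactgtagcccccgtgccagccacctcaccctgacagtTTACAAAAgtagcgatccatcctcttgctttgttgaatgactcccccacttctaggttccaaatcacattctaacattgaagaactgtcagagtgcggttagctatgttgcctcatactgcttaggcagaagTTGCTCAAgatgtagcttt
Lcn2 promoter, chr2:32387740-32387989, - strand: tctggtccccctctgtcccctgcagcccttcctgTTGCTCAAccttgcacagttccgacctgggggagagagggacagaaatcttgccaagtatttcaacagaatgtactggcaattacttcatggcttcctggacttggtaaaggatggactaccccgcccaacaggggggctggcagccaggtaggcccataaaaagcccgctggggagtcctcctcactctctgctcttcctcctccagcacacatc
Ngp promoter, chr9:110419558-110419807, + strand: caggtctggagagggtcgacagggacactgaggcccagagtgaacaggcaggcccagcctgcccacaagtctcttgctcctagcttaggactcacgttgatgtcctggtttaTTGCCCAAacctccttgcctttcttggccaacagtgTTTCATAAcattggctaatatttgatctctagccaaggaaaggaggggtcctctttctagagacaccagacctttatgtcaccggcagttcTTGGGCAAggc
Ltf promoter, chr9:111019042-111019291, + strand: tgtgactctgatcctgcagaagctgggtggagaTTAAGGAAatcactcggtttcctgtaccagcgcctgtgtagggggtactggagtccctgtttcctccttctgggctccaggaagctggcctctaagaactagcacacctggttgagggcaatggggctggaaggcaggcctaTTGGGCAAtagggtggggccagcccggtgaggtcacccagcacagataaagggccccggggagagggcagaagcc
Of the 9 member promoters, 8 held the motif in these windows and Camp did not, while 36.8% of 32851 promoter windows of the same length held it. Ngp had 3 matches, Fcnb, Mmp8 and Ltf had 2 each and Lcn2 had 1. The ETS core GAGGAA, in either orientation, stood in 4 of the 9 (Ltf, Lcn2, Mmp8 and S100a8) and in 23.3% of all windows. The neighbours S100a8 and S100a9 both held TTNNGNAA. A match is a description of the letters and not of binding.

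Between the classes, 4 of the 9 genes fell in the jaw bones and 0 rose. Fcnb was 6.28-fold, Mmp8 5.92-fold, Lcn2 5.74-fold and Ngp 4.84-fold lower in the jaw. Camp, S100a8, Chil3 and Ltf had negative differences that did not pass the test, and S100a9 had one near 0. For comparison, 7.25% of all genes tested were called lower and 4.51% higher, 11.8% together. Both jaw bones lay below both other bones for 7 of the 9, against 36.3% of all genes, and above them for 0, against 31.9%. The classes overlapped for Ltf and S100a9. A difference of -1 or lower was found for 6 of the 9 and for 15.6% of all genes. The median difference of the 9 was -1.24, and the median over all genes was -0.03. In RNA from mixed cells, readings such as fewer neutrophil precursors and less of a transcript per cell cannot be told apart.

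Fcnb encodes ficolin-B, a lectin of the myeloid lineage that recognises sugars on microbes (probe on mouse build mm8, chromosome 2, 27898774 to 27900257). Its level was -0.81 in the maxilla and 0.01 in the mandible, against 2.20 in the ilium and 2.29 in the femur. Both jaw bones were well below the others, and the maxilla was the lowest. The difference was -2.65 ± 0.36 (SE, 2 bones per class; limma adjusted p = 0.0358), the largest of the 9. Mmp8, the neutrophil collagenase (chromosome 9, 7568238 to 7568297), stood at 1.79 in the maxilla and 2.82 in the mandible, against 4.72 in the ilium and 5.02 in the femur. The order of the bones was that of Fcnb, with a difference of -2.57 ± 0.43 (limma adjusted p = 0.0471).

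Lcn2 encodes lipocalin-2, which withholds iron from bacteria by binding their siderophores (chromosome 2, 32207526 to 32207770). It stood at 1.52 in the maxilla and 1.90 in the mandible, against 4.18 in the ilium and 4.29 in the femur. Of the 9 genes it had the smallest p, with a difference of -2.52 ± 0.24 (limma adjusted p = 0.0325). Lcn2 is also an epithelial gene, and the summed epithelial markers were higher in the jaw samples; their part in its level was not tested. Ngp, neutrophilic granule protein, a relative of the cystatins and cathelicidins (chromosome 9, 110266929 to 110267477), stood at 2.96 in the maxilla and 3.88 in the mandible, against 5.65 in the ilium and 5.74 in the femur. It differed by -2.27 ± 0.39 (limma adjusted p = 0.0474).

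These calls sit close to the threshold, since no gene in the table had an adjusted p below 0.0325. With quantile normalization only Lcn2 and Fcnb passed, with no filter on background only Lcn2, and in the deposited series table Ngp did not pass. With normexp background correction, and when all 4 arrays had to be above background, Camp and S100a8 passed in addition, 6 of the 9 in each case. Without the ilium or without the femur 0 of the 9, and 0 genes of the whole table, were called by limma. At an unadjusted p under 0.05 there were 4 of the 9 in either case, and 3550 genes in all without the ilium and 2628 without the femur. Without the maxilla the median difference of the 9 was -1.81, and without the mandible it was -1.42.

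**Figure D1:**
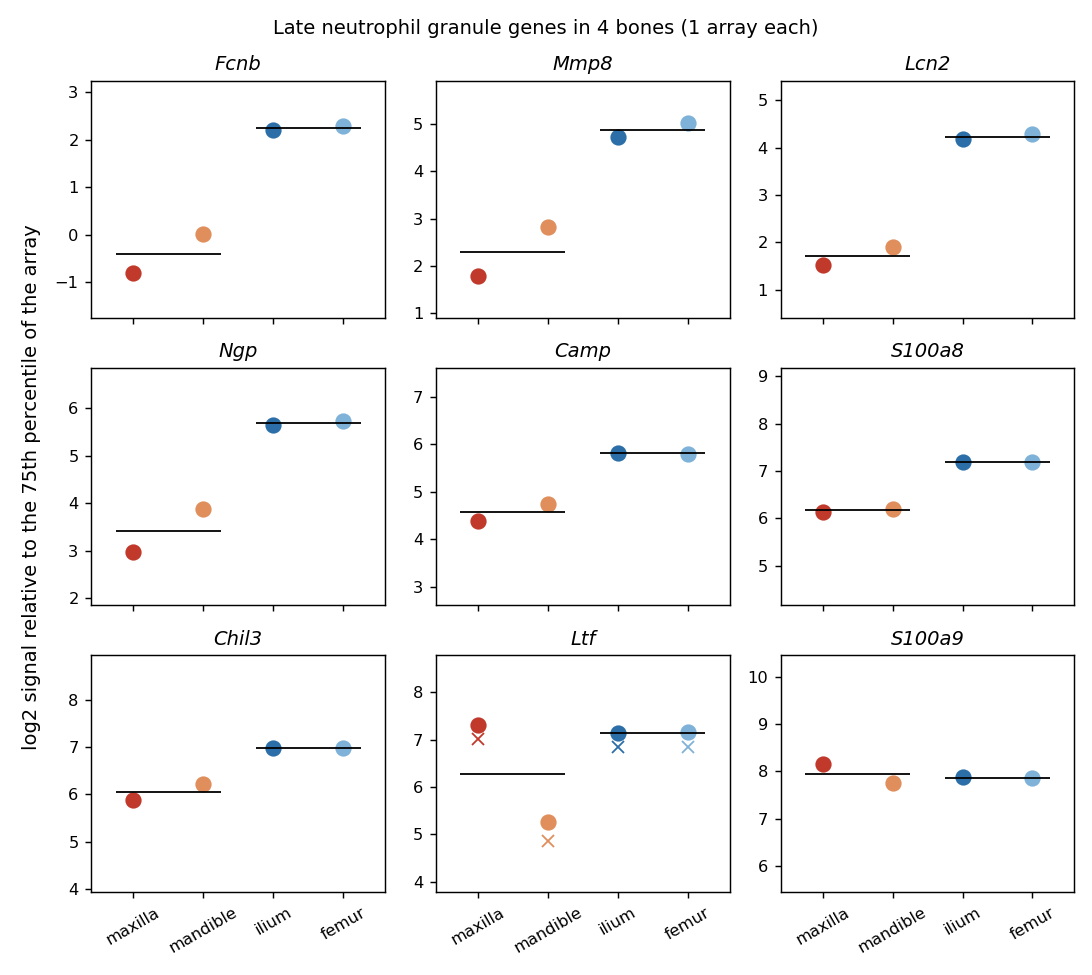
Level of each late granule gene by bone, in log2 units with each array's 75th percentile at 0, in panels that all span the same range. Points are single arrays, crosses in the Ltf panel are its dimmer probe, and lines are class means. Fcnb, Mmp8, Lcn2 and Ngp are low in both jaw bones, whereas Ltf is low in the mandible alone and the classes overlap for S100a9.

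Camp encodes the precursor of the cathelicidin peptide of the mouse, CRAMP (chromosome 9, 109704884 to 109704943). Its level was 4.39 in the maxilla and 4.75 in the mandible, against 5.82 in the ilium and 5.80 in the femur. The classes did not overlap, but the difference of -1.24 ± 0.23 missed the threshold (limma adjusted p = 0.0526, 95% interval -1.89 to -0.59). It passed with normexp background correction (limma adjusted p = 0.0416) and with the filter on genes above background in all 4 bones (0.0440). It did not pass with quantile normalization (0.0746), median centring (0.0612), the deposited table (0.0643) or no filter (0.0786). Nor did it with outlier probes left out (0.0527) or the mean over probes (0.0534).

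Chil3 encodes Ym1, a chitinase-like lectin made by neutrophil precursors and by some macrophages (chromosome 3, 106275623 to 106275682). It stood at 5.88 in the maxilla and 6.22 in the mandible, against 6.97 in the ilium and 6.99 in the femur, without overlap. The difference was -0.93 ± 0.23 (limma adjusted p = 0.0795, 95% interval -1.57 to -0.29). A further probe, named for the near-identical gene Chi3l4 (Chil4), lists the Chil3 transcript among its accessions and was not counted for Chil3. That shared probe stood at 2.24 in the maxilla and 2.72 in the mandible, against 5.11 in the ilium and 5.40 in the femur. Its difference was -2.78 ± 0.28 (limma adjusted p = 0.0325). The probes of this gene pair thus had the same direction and unequal size. The shared probe cannot be assigned to 1 of the genes with certainty, and whether the Chil3 probe also detects Chil4 was not examined.

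S100a8 and S100a9 encode the subunits of calprotectin, a calcium- and zinc-binding dimer that fills the cytosol of neutrophils. S100a8 (chromosome 3, 90755783 to 90755842) stood at 6.15 in the maxilla and 6.20 in the mandible, against 7.18 in the ilium and 7.20 in the femur. Both jaw bones were lower, by -1.02 ± 0.19 (limma adjusted p = 0.0531, 95% interval -1.56 to -0.48). S100a8 passed with normexp (limma adjusted p = 0.0392) and with the filter on all 4 arrays (0.0443). It did not pass with quantile normalization (0.0722), median centring (0.0581), the deposited table (0.0612) or no filter (0.0837). Nor did it with outlier probes left out (0.0532) or the mean over probes (0.0535). S100a9 (chromosome 3, 90778590 to 90778649) stood at 8.15 in the maxilla and 7.75 in the mandible, against 7.87 in the ilium and 7.86 in the femur. Here the mandible was the lowest and the maxilla the highest bone, and the difference was 0.08 ± 0.24 (limma adjusted p = 0.831, 95% interval -0.59 to 0.76).

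The sign for S100a9 turned to -0.07 with quantile normalization and to -0.17 with median centring and in the deposited table. Median centring moved the median of all genes from -0.03 to -0.28, so relative to all genes S100a9 stood at 0.11 under both scalings. Within an array, S100a9 minus S100a8 was 2.00 in the maxilla and 1.56 in the mandible, against 0.69 in the ilium and 0.67 in the femur. The gap between these probes was wider in both jaw bones than in the others, and this difference was not tested. The stratified epithelium markers, of which 9 of 11 were called higher in the jaw, also differed between the classes. Krt15, 1 of the 9, was well above background in the jaw bones alone. Between the jaw bones the gap was wider in the maxilla, while the summed signal of these markers was 105 there and 129 in the mandible. Of the 11 markers, 6 were higher in the maxilla. Another pair, Chil3 minus the probe shared with Chil4, also had a wider gap in both jaw bones. Its values were 3.64 (maxilla) and 3.50 (mandible), against 1.86 (ilium) and 1.58 (femur). In each pair the first probe was the brighter on every array. By signal among all probes, S100a9 ranked 12 (maxilla), 15 (mandible), 11 (ilium) and 12 (femur). The part of epithelium or of spot brightness in these gaps was not tested.

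**Figure D2:**
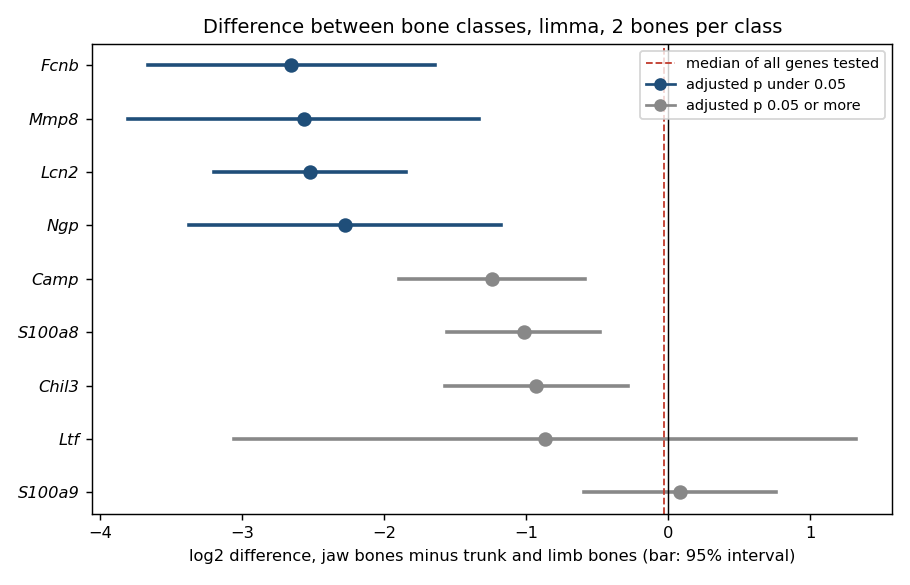
Jaw minus trunk and limb difference of each gene on the log2 scale, with the 95% interval of limma (2 bones per class). Blue points are below the threshold of adjusted p = 0.05, grey points are not, and the dashed line is the median of all genes tested; the intervals of Ltf and S100a9 span 0.

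Ltf, lactoferrin, the iron-binding protein of specific granules and also of tears, saliva and other gland secretions, was the gene in which the jaw bones parted. Its brighter probe (chromosome 9, 110885185 to 110885244) stood at 7.30 in the maxilla and 5.26 in the mandible, against 7.13 in the ilium and 7.16 in the femur. The maxilla was thus at the level of the trunk and limb bones, and the mandible was 1.89 below their mean. The second probe (chromosome 9, 110880576 to 110883626) gave 7.01 in the maxilla and 4.86 in the mandible, against 6.84 in the ilium and 6.85 in the femur, which is the same order of the jaw bones. The class difference was -0.87 ± 0.77 (limma adjusted p = 0.477). Without the maxilla it was -1.89, and without the mandible 0.15, the opposite sign. Of the 11 tested nasal and salivary gland markers 10 had a higher maxilla than mandible level, by a median of 7.94 log2 units. Their part in the level of Ltf was not tested.

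Maxilla and mandible had 1 array each, so their difference has no test. The maxilla was below the mandible for 7 of the 9 genes and above it for Ltf and S100a9. At 2-fold or more, Ltf was 4.11-fold higher and Mmp8 2.04-fold lower in the maxilla. That is 2 of 9 genes, close to the 21.9% of all genes that were this far apart (13.5% higher and 8.32% lower in the maxilla). With median centring, and in the deposited table, 4 genes passed, Ngp and Fcnb in addition, both lower in the maxilla.

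Ilium and femur lay close together for these genes. None of the 9 was 2-fold or more apart, against 3.83% of all genes (2.27% higher and 1.57% lower in the ilium), and the widest gap was that of Mmp8, at -0.29 for ilium minus femur. This difference too has no test. Eosinophil genes, markers of another granulocyte, had wider gaps between these bones: all 5 tested were lower in the ilium than in the femur, with a median of -1.95, and Epx, eosinophil peroxidase, stood at 0.76 in the ilium and 2.72 in the femur.

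**Figure D3:**
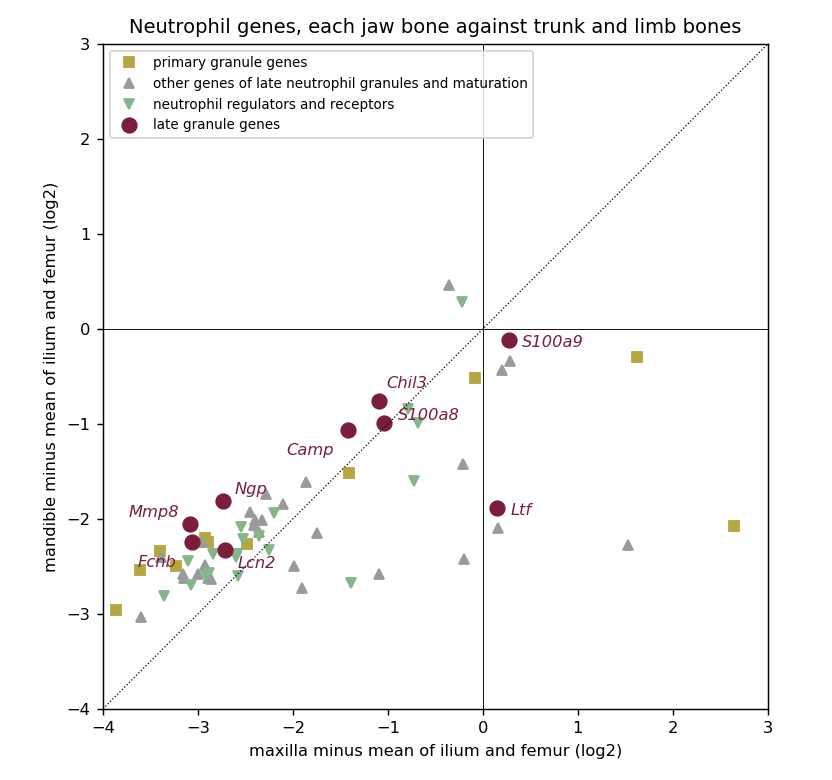
Each jaw bone minus the mean of ilium and femur, maxilla on the horizontal and mandible on the vertical axis (log2). Red points are the late granule genes, other symbols are the 3 further neutrophil lists, and the dotted line marks equal values; Ltf lies far below the line, and Fcnb, Mmp8, Lcn2 and Ngp lie among the bulk of the neutrophil genes.

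Other neutrophil genes are given from 3 lists. Of 11 tested genes of the primary granule list, 8 were called lower and 0 higher, with a median of -2.56. Prtn3, proteinase 3, differed by -3.41 ± 0.39 (limma adjusted p = 0.0325), Elane, neutrophil elastase, by -3.08 ± 0.43 (0.0371) and Mpo, myeloperoxidase, by -2.87 ± 0.43 (0.0403). Ctsc, Gstm1 and Prom1 were not called. The list is not confined to granule proteins, and Gstm1 and Prom1 are not among them. Of 28 other genes of late granules and maturation, 20 were called lower and 0 higher, with a median of -2.20. Padi4, which citrullinates histones, differed by -3.32 ± 0.31, Mmp25, a membrane-bound metalloproteinase, by -2.90 ± 0.42 and Ltb4r1, the leukotriene B4 receptor, by -2.89 ± 0.28, each called. The gelatinase gene Mmp9 differed by -1.74 ± 0.30 (limma adjusted p = 0.0474) and is also an osteoclast gene.

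Of 19 tested neutrophil regulators and receptors, 14 were called lower and 0 higher, with a median of -2.37. Csf3r, the receptor of granulocyte colony-stimulating factor, differed by -3.08 ± 0.31, Cxcr2, a chemokine receptor of mature neutrophils, by -2.88 ± 0.25 and Gfi1, a repressor needed for granulocyte development, by -2.78 ± 0.31, each with a limma adjusted p of 0.0325. Among the C/EBP genes, Cebpa differed by -1.16 ± 0.38 (0.126), Cebpb by 0.03 ± 0.27 (0.950) and Cebpd by -0.82 ± 0.19 (0.0759), none of them called. Cebpe, the C/EBP factor of late granule genes, had no value and was not analysed here.

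The 9 late granule genes had a smaller median difference than any of these 3 lists. For the 6 members other than Lcn2, S100a8 and S100a9 the median was -1.76, nearer to the lists but also smaller in size. Fcnb, Mmp8, Lcn2 and Ngp, from -2.65 to -2.27, were near the medians of the lists, and Camp, S100a8, Chil3, Ltf and S100a9 were nearer to 0. Those 5 were also the 5 of the 9 with the brightest probes, a property of the probe as well as of the amount of RNA. By mean brightness over the 4 bones they ranked 323, 77, 90, 74 and 9 of 20616 genes. Ngp, Mmp8, Lcn2 and Fcnb ranked 528, 1118, 1824 and 5774. That mean, also used for the counts that follow, includes the jaw bones, so a gene that is lower in the jaw ranks lower by it. By signal among all probes, Camp ranked 258 and Ngp 296 on the ilium array, and 258 and 275 on the femur array. Of the 100 brightest genes, 4 of the members among them, 2 were called lower (2%), and of the 500 brightest, with Camp in addition, 32 (6.4%), against 7.25% of all genes. A difference of -1 or lower was found for 6 of the 100 and for 68 of the 500, against 15.6% of all genes. Of the 500, 18 had one of -2 or lower, down to -3.05 for Slc4a1. The part of spot brightness in the smaller differences was not tested.

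As for Ltf, the mandible was the lowest bone in some other genes of the late list. Of its 28 genes, 10 had a higher maxilla than mandible level, and 3 are named here after their values were seen. Pglyrp1, an antibacterial granule protein, stood at 3.77 in the maxilla and 1.55 in the mandible, against 3.94 in the ilium and 4.00 in the femur. Olfm4, a specific granule protein also made in epithelium, stood at -1.87 in the maxilla and -5.67 in the mandible, against -3.59 in the ilium and -3.21 in the femur. Hdc, histidine decarboxylase, stood at 3.70 in the maxilla and 1.44 in the mandible, against 3.40 in the ilium and 3.67 in the femur. In all 3 the mandible was the lowest bone, and none was called between the classes (limma adjusted p = 0.341, 0.871 and 0.475). For Olfm4 the maxilla stood well above the ilium and femur, and not near their level as for Ltf.

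Markers of other cells gave the surroundings of these values. Erythroid markers were called lower for 8 of 8 genes (median -3.42), megakaryocyte markers for 7 of 7 (-2.55) and B lymphocyte markers for 6 of 8 (-2.03), with 0 higher in each. Of 9 tissue macrophage and monocyte genes 2 were called lower, Ccr2 and the probe shared by Chil4 and Chil3, and the median was -0.85. Csf1r, the macrophage growth factor receptor, differed by -0.62 ± 0.29 (limma adjusted p = 0.225). Of 5 eosinophil genes 0 were called (median -2.69), of 8 osteoblast genes 0 (median 0.95) and of 7 osteoclast genes 0 (median 0.08). The median of the 9 late granule genes lay between those of the macrophage and the B lymphocyte lists.

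**Figure D4:**
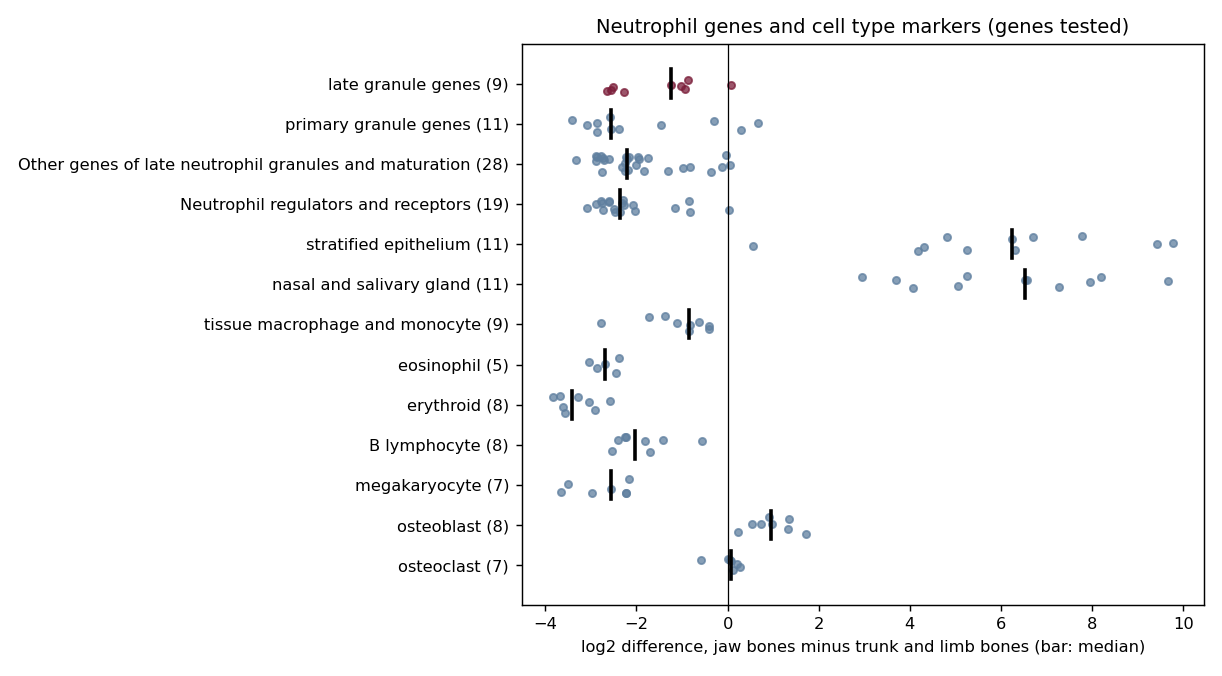
Jaw minus trunk and limb difference (log2) of the late granule genes, the 3 other neutrophil lists and the marker lists. Each point is a gene, the bar is the median of the list and the number of genes tested is in brackets; blood cell lists lie left of 0, epithelial and gland lists right of it, and the late granule genes spread from -2.65 to 0.08.

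The genes nearest in profile to 6 of the members were sought over the 4 bones, with Lcn2, S100a8 and S100a9 left out. Ltf, also a gland gene, was among the 6. Likeness was the Euclidean distance between profiles centred on the mean of each gene, against the median profile of Camp, Ltf, Ngp, Mmp8, Fcnb and Chil3, among 18395 genes well above background on all arrays. The closest were Ccdc18 (distance 0.0974), Ddx39a (0.101), Fam220a (0.109), Cfp (0.115) and Palb2 (0.118), then Mthfd1l, Dut, C1ql2, Gdpd2 and Herc6, up to 0.133. Cfp, which encodes properdin of the complement system, stood at 2.00 in the maxilla and 2.55 in the mandible, against 4.14 in the ilium and 4.20 in the femur. With 4 values per gene the distance is a description only.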

How the data were processed

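RNA of 4 bones was hybridised to Agilent one-colour arrays. The authors deposited spot intensity values extracted with Agilent Feature Extraction 9.5.3.1, background-subtracted and detrended, per the file headers and the submitters' processing notes. They also deposited a table of log2 values; set against the scanner values, its columns held log2 ratios to the ilium array with a constant shift per array, within 0.001 for at least 99.9% of probes; the basis of the shifts is not given in the sources used here. Processed signals were put on the log2 scale and centred on each array's 75th percentile. Outlier spots were left out, the other spots of a probe averaged, and the brightest probe of a gene used. Genes above background on 2 or more of the 4 arrays were tested with limma 3.58.1 in R 4.3.3 (lmFit, eBayes, 2 residual and 1.76 prior degrees of freedom). Probes were named through RefSeq tables of GRCm38.p6, which also gave the promoters. Positions of probes are those of mm8, per the file headers. Alternatives were normexp, quantile and median scaling, the deposited table, filters, probe rules and leaving out each bone. Precision is limited by the number of arrays. The members and gene lists were chosen with earlier results of these data known. Named are all members, from each list the 3 called genes of largest difference and any of opposite sign by at least 1, and the 10 nearest profiles; names outside this rule were chosen after their values were seen. All arrays lay on 1 slide.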

Additional observations from a re-analysis of the deposited data

How the results depend on the processing

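The count of late granule genes called, 4, was 2 with quantile normalization and 1 with no filter on background, and ran from 0 to 7 when 1 bone was left out. The count over all genes, 2423, was 1120 with no filter and ran from 0 to 8204 when 1 bone was left out; where that leaves a class with 1 bone, limma assumes that it varies like the other class. The share of calls that were higher in the jaw, 38.3%, was 26.8% with median centring and 27.2% in the deposited table. The median difference of the 9 genes ran from -1.81 to -1.23 when 1 bone was left out, and from -1.49 to -1.06 under the other settings. Genes 2-fold or more apart between maxilla and mandible numbered 4 with median centring and 4 in the deposited table in place of 2, and 0 were this far apart between ilium and femur under the 6 alternatives that leave out no bone and change no filter. Fcnb, Mmp8, Lcn2, Ngp, Camp, S100a8 and Chil3 kept their sign under all 12 alternatives. Ltf ran from -1.89 to 0.15 when 1 bone was left out. S100a9 was -0.069 with quantile normalization, -0.17 with median centring and -0.17 in the deposited table, and ran from -0.12 to 0.28 when 1 bone was left out. The osteoclast list's median, 0.08, was -0.17 with median centring and -0.17 in the deposited table, and ran from -0.95 to 1.14 when 1 bone was left out. Without the ilium, and without the femur, 0 genes of any list were called. With no filter, 5 genes of the primary granule list were called in place of 8, 3 B lymphocyte genes in place of 6 and 1 macrophage gene in place of 2. Of the 11 nasal and salivary gland genes 2 were called, 1 with normexp, 1 with quantile normalization, 0 when all 4 arrays had to be above background, and from 0 to 11 with 1 bone left out. Of the eosinophil genes 1 was called with median centring and 1 in the deposited table, in place of 0, and 1 without the maxilla. Of the osteoblast genes 3 were called without the maxilla and 1 without the mandible, in place of 0. The cause of these changes was not tested. No paired analysis was possible because each bone has 1 array and the labels give no replicate numbers. With 1 array per bone, differences between 2 bones have no error of their own.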
